A study of Mus musculus with 6 samples.

Results

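Paneth cell products were followed through 10 genes in small intestinal organoids that carry inducible reprogramming factors: Lyz1, Defa17, Defa24, AY761184, Ang4, Itln1, Habp2, Pla2g2a, Mptx1 and Mptx2. They were taken by symbol as a named list, and all 10 were found among the 55416 gene identifiers of the tables. The organoids came from the intestinal epithelium of mice 4 to 8 weeks old homozygous (Tg/Tg) for Rosa26-rtTA and for Col1A1-TetO-OSKM, in which doxycycline switches on a cassette of Oct4 (Pou5f1), Sox2, Klf4 and Myc (OSKM) through the rtTA activator driven from the Rosa26 locus. Controls had the same genotype and no doxycycline, and the treated organoids were exposed for 3 days to doxycycline at 0.1 or 0.5 µg/ml. All 3 groups had 2 libraries of poly-A RNA, described as biological replicates, with totals of about 45290000 to 72548000 expected counts. No group without the transgenes or of doxycycline alone was analysed here, so a change with dose cannot be told apart from one caused by doxycycline itself. Pou5f1 rose from 0.191 CPM (counts per 1000000 counts of the library, scaled with edgeR's TMM factors) in control to 139 at 0.1 µg/ml and 499 at 0.5 µg/ml, and Sox2 from 0.210 to 84.8 and 309. Klf4 went from 30.6 to 224 and 759 CPM, and Myc from 44.4 to 249 and 834 CPM.

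Paneth cells sit at the base of the small intestinal crypt, between the stem cells, and fill their apical granules with antimicrobial proteins that are released into the crypt lumen. Lysozyme cuts the bacterial cell wall, alpha-defensins are short cationic peptides that disrupt microbial membranes, and the other products include a ribonuclease, lectins and a phospholipase. Paneth cells arise from secretory progenitors under Atoh1 and Gfi1, need Wnt signalling and Sox9, and in turn supply the stem cells with Wnt3, EGF-family and Notch ligands. Mature mouse alpha-defensins are cut from their precursors by the metalloprotease Mmp7.

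The alpha-defensin genes are recent copies of one another, which sets how far a single gene's value can be read. The last 120 coding bases, which code for the carboxy-terminal end where the mature peptide lies, are shown for the most abundant copies, with capitals where a base differs from Defa24 (5′ to 3′, GENCODE M21 transcripts).
Defa24: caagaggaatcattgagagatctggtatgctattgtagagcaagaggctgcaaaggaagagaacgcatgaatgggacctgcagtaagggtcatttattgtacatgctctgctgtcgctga
Defa17: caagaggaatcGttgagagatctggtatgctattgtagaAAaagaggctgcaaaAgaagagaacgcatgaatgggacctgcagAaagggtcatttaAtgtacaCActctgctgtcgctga
Defa30: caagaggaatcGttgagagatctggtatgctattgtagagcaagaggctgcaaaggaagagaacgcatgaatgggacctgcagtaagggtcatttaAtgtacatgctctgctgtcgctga
In this stretch Defa17 differs from Defa24 at 8 bases and Defa30 at 2. The whole coding sequence of Defa17, 282 bases with its stop codon, is 100.0% identical to that of Defa3. Of all 100-base windows of the Defa17 transcript, 90.6% also occur in Defa3 or Defa30, whereas none of the Defa24 or AY761184 windows occur in another gene. Single 100-base reads of Defa17 and Defa3 therefore cannot be separated over most of the transcript, and the share for read pairs was not computed. The single values of both genes are uncertain. Defa24 has 95.7% coding identity to Defa17, and AY761184 only 64.7%.

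The pentraxin pair Mptx1 and Mptx2 has 92.0% coding identity over 660 bases, but only 3.3% of the 100-base windows of either transcript are shared, so their values are largely separate. The 250 bases before each start site are shown because the pair's values parted at the lower dose. Capitals mark matches to motifs of TCF/LEF, the nuclear partners of Wnt signalling, or of CDX, the intestinal identity factors (RefSeq starts, build GRCm38.p6, 5′ to 3′ on the gene's strand).
Mptx1, chr1:174330268-174330517, plus strand: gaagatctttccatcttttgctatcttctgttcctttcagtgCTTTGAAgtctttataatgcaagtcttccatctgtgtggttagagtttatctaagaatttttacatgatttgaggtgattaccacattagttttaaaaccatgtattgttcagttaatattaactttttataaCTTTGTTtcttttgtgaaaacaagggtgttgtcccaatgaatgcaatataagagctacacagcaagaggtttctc
Mptx2, chr1:173277757-173278006, minus strand: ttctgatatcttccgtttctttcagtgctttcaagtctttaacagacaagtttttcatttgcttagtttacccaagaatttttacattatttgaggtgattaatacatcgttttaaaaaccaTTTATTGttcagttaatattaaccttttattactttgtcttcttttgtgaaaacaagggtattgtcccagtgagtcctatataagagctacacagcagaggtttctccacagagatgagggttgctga
Both strands were searched. The TCF/LEF letters were CTTTGAA, its variant CTTTGAT, and the further variants CTTTGTT and also CTTTGTA, and the CDX letters were TTTATNG. Mptx1 holds 2 TCF/LEF matches and no CDX match, and Mptx2 holds 1 CDX match and no TCF/LEF match. Of 32851 windows of 300 bases around mouse starts, 16.9% hold a TCF/LEF match and 10.9% a CDX match, so these are letters that many promoters have. RefSeq windows were matched for 6 of the 10 genes, and of the windows of Lyz1, Ang4, Itln1 and Habp2 none held a TCF/LEF match and that of Itln1 held 1 CDX match. In all, 7 motif families were searched, the others being class A E-box, Myc E-box, KLF, SOX and octamer motifs. Neither Mptx window held a match to these. Habp2 held a KLF and an octamer match, found in 17.6% and 1.7% of all windows. Lyz1 held a class A E-box match, found in 16.3%.

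Most Paneth products fell at both doses, and the fall was larger at 0.5 µg/ml. Of the 10 genes, 9 passed the filter on low counts, AY761184 through its control libraries alone and Pla2g2a through treated libraries alone. At 0.5 µg/ml 8 of these 9 were lower than in control and none higher by edgeR's quasi-likelihood test at an adjusted p of 0.05, with Pla2g2a not passing. Over all 16975 genes tested 33.1% were lower and 34.4% higher in this comparison. At least 4-fold lower were 7 of the 9, against 4.09% of all genes. The median log2 change of the 9 was -3.01, against -0.0045 over all genes. At 0.1 µg/ml 7 of 9 were lower, against 13.8% of all genes, and 1, Mptx1, was higher, against 20.8% of all genes, with a median of -1.57 against 0.017. Between 0.5 and 0.1 µg/ml 8 of 9 were lower, against 29.1% of all genes, and none higher, against 29.8%, with a median of -1.46 against -0.017. Of the 8, AY761184 did not pass under several alternatives given below. The libraries did not overlap between groups for 8 of 9 products at 0.5 µg/ml against control (84.1% of all genes), 9 of 9 at 0.1 µg/ml (67.8%) and 8 of 9 between the doses (80.7%). The comparisons with control share the control libraries, and both dose steps share the 0.1 µg/ml libraries. In RNA from whole organoids, fewer cells of a type and less RNA per cell cannot be told apart.

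**Figure D1:**
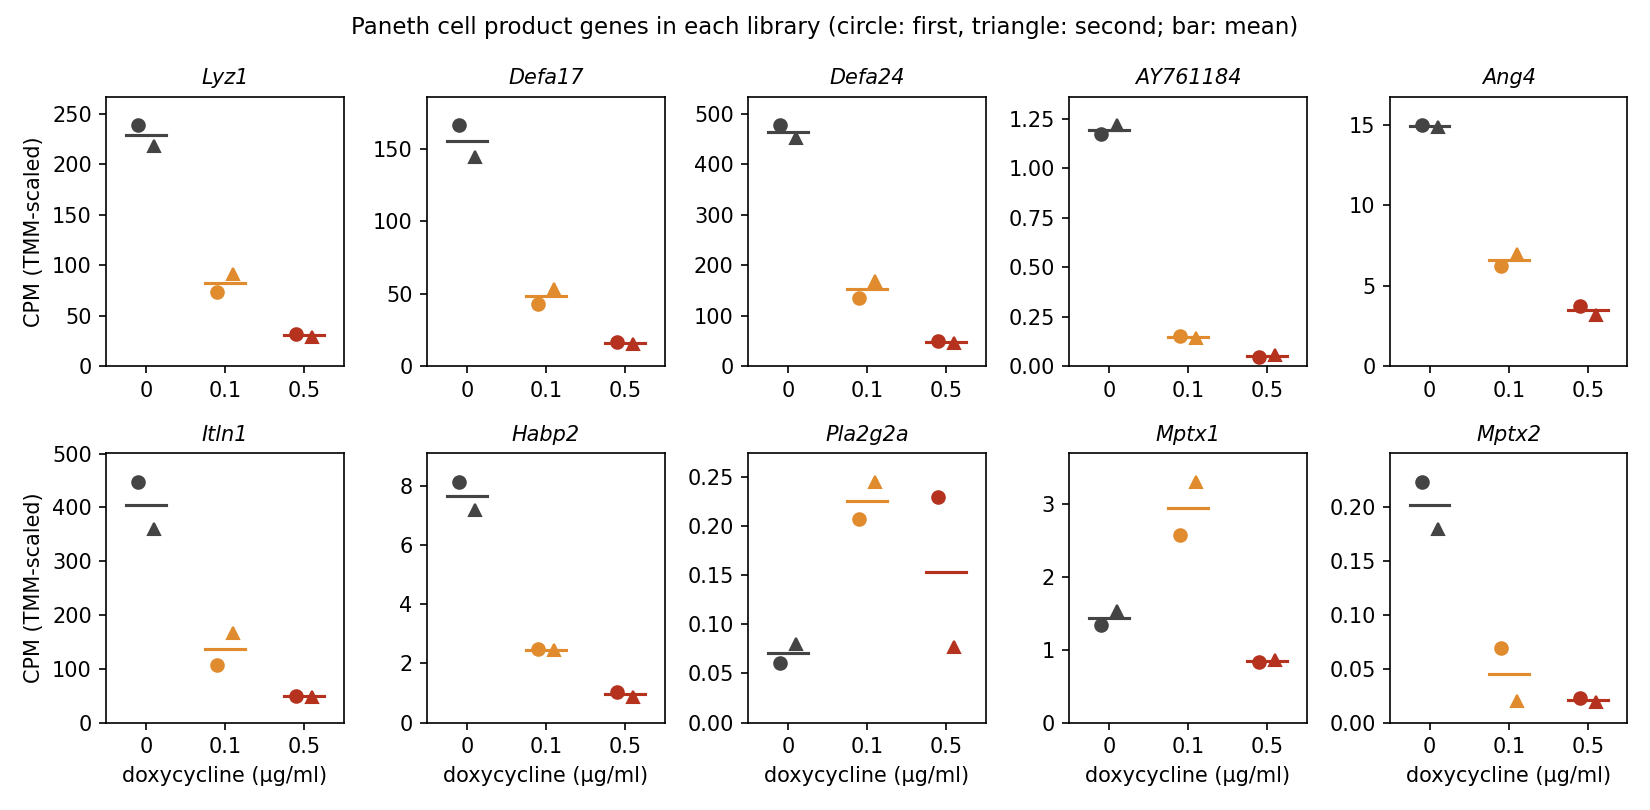
TMM-scaled CPM (linear axes from 0) of the 10 Paneth products against doxycycline dose, with circles for the first and triangles for the second library of a group and bars for the mean of 2. Lyz1, the defensins, Ang4, Itln1 and Habp2 step down at each dose without overlap between groups, and Mptx1 is highest at 0.1 µg/ml.

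Lyz1 (ENSMUSG00000069515), the Paneth lysozyme, stood at 239 and 219 CPM in the control libraries, 73.5 and 91.1 with 0.1 µg/ml, and 31.6 and 29.0 with 0.5 µg/ml. The 3 groups did not overlap, and the libraries of a group lay close together beside the distance between groups. Lyz1 was 2.78-fold lower at 0.1 µg/ml (log2 change -1.48 ± 0.09 SE, edgeR adjusted p = 1.97e-06) and 7.55-fold lower at 0.5 µg/ml (-2.92 ± 0.10, edgeR adjusted p = 5.09e-09). From 0.1 to 0.5 µg/ml it fell a further 2.71-fold (edgeR adjusted p = 1.28e-06). Its sister gene Lyz2, the lysozyme of macrophages, has 95.1% coding identity to Lyz1 but shares only 2.1% of the Lyz1 windows. Lyz2 had 8 and 7 counts in control, 5 and 4 with 0.1 µg/ml, and 1 and 0 with 0.5 µg/ml, too few to be tested.

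Defa24 (ENSMUSG00000064213) was the most abundant product per transcript length in every group. Its CPM was 477 and 451 in control, 135 and 169 with 0.1 µg/ml, and 48.6 and 46.6 with 0.5 µg/ml. All control libraries lay above all treated ones and the doses did not overlap. The fall was 3.06-fold at 0.1 µg/ml (edgeR adjusted p = 8.28e-07) and 9.76-fold at 0.5 µg/ml (edgeR adjusted p = 1.82e-09), with 3.19-fold between the doses (edgeR adjusted p = 3.23e-07). Per transcript length, Defa24 ranked 54th and 58th of all genes by TPM (transcripts per 1000000) in the control libraries and 385th and 418th at 0.5 µg/ml.

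Defa17 (ENSMUSG00000060208) followed the same course, at 166 and 144 CPM in control, 43.1 and 53.4 with 0.1 µg/ml, and 16.7 and 15.5 with 0.5 µg/ml. It was 3.23-fold lower at 0.1 µg/ml (edgeR adjusted p = 1.26e-06) and 9.64-fold lower at 0.5 µg/ml (edgeR adjusted p = 4.70e-09). Defa3, which has the same coding sequence, had 136 and 154 CPM in control, 45.2 and 55.9, and 14.5 and 13.5. In control the order of Defa17 and Defa3 differed between the 2 libraries, and at both doses their values lay within a few CPM of each other. AY761184 (ENSMUSG00000058618), an alpha-defensin-related gene with no window shared with another gene, was scarce, with 58 and 61 counts in control, 11 and 7 with 0.1 µg/ml, and 2 and 3 with 0.5 µg/ml. Its fitted fall was 7.97-fold at 0.1 µg/ml (edgeR adjusted p = 5.54e-05) and 22.0-fold at 0.5 µg/ml (edgeR adjusted p = 4.12e-06). AY761184 passed the filter on low counts through the control libraries alone, where it was highest. Its place among the products called lower therefore rests in part on that filter. From the summed counts the ratio of control to 0.5 µg/ml was 22.9, with an exact 95% interval of 9.55 to 71.9 for counting error only. The further fall from 0.1 to 0.5 µg/ml, 2.76-fold, passed the test (edgeR adjusted p = 0.0432) but not with DESeq2 (adjusted p = 0.150), with every gene of at least 1 count kept (edgeR adjusted p = 0.0686), or without any 1 of the 6 libraries, control libraries included (edgeR adjusted p = 0.0620 to 0.152).

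Itln1 (ENSMUSG00000038209), intelectin, is a secreted lectin that binds microbial sugars and is made by goblet as well as Paneth cells. It stood at 447 and 360 CPM in control, 107 and 166 with 0.1 µg/ml, and 50.1 and 47.4 with 0.5 µg/ml. Its libraries were farther apart within control and at 0.1 µg/ml than those of Lyz1, yet no groups overlapped. Itln1 was 2.97-fold lower at 0.1 µg/ml (edgeR adjusted p = 9.23e-05) and 8.28-fold lower at 0.5 µg/ml (edgeR adjusted p = 2.99e-07).

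Ang4 (ENSMUSG00000060615), a ribonuclease of the angiogenin family with antimicrobial activity, fell least among the products lower at both doses. It had 15.0 and 14.9 CPM in control, 6.22 and 6.95 with 0.1 µg/ml, and 3.73 and 3.20 with 0.5 µg/ml. The groups did not overlap, and the falls were 2.27-fold (edgeR adjusted p = 1.61e-05) and 4.32-fold (edgeR adjusted p = 9.80e-08). Habp2 (ENSMUSG00000025075), a secreted serine protease that binds hyaluronan, had 8.14 and 7.18 CPM in control, 2.48 and 2.45 with 0.1 µg/ml, and 1.03 and 0.882 with 0.5 µg/ml. It was 3.10-fold lower at 0.1 µg/ml (edgeR adjusted p = 1.21e-05) and 8.03-fold lower at 0.5 µg/ml (edgeR adjusted p = 9.36e-08).

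Mptx1 (ENSMUSG00000026531), a mucosal member of the pentraxin family of pattern-binding proteins, did not follow the other products. Its CPM was 1.34 and 1.54 in control, 2.58 and 3.30 with 0.1 µg/ml, and 0.825 and 0.863 with 0.5 µg/ml, from 36 to 187 counts a library. The 0.1 µg/ml libraries were the highest and the 0.5 µg/ml libraries the lowest, with no overlap. Mptx1 was 2.03-fold higher at 0.1 µg/ml (log2 change 1.02 ± 0.19 SE, edgeR adjusted p = 0.00255) and 1.70-fold lower at 0.5 µg/ml (-0.76 ± 0.22, edgeR adjusted p = 0.0122). The fall against control did not pass without the first 0.5 µg/ml library (edgeR adjusted p = 0.0512). Between the doses it fell 3.45-fold (log2 change -1.79 ± 0.21, edgeR adjusted p = 5.05e-05).

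Mptx2 (ENSMUSG00000079180), the second mucosal pentraxin, was near the limit of detection, with 11 and 9 counts in control, 5 and 1 with 0.1 µg/ml, and 1 and 1 with 0.5 µg/ml, and it did not pass the filter. A level of 3 counts corresponds to 0.0414 to 0.0687 CPM, depending on the library. Every control library lay above every treated one. The ratio of control to 0.5 µg/ml over the summed counts was 9.63, with an exact 95% interval of 2.34 to 84.9. That of control to 0.1 µg/ml was 4.07 (1.58 to 12.4). Both intervals are for counting error only and leave out the spread between libraries. With every gene of at least 1 count kept, Mptx2 was lower at 0.5 µg/ml (log2 change -3.13 ± 0.99, edgeR adjusted p = 0.00422) and at 0.1 µg/ml had a log2 change of -2.01 ± 0.79 (edgeR adjusted p = 0.0506). Mptx1 was thus higher at 0.1 µg/ml while the Mptx2 values there were below those of control, and the difference between the genes was not tested.

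Pla2g2a (ENSMUSG00000058908), a secreted phospholipase that breaks down bacterial membranes, is disrupted by a frameshift in some laboratory mouse strains, and no source used here names the strain of these mice. It had 3 and 4 counts in control, 15 and 12 with 0.1 µg/ml, and 10 and 4 with 0.5 µg/ml. The 0.5 µg/ml libraries spanned most of the range, and 1 of them lay between the control libraries in CPM. Its log2 change was 1.63 ± 0.60 at 0.1 µg/ml (edgeR adjusted p = 0.0623) and 1.04 ± 0.68 at 0.5 µg/ml (edgeR adjusted p = 0.197). With only control and 0.1 µg/ml libraries in the fit, the first passed (log2 change 1.62, edgeR adjusted p = 0.0375). In that fit Pla2g2a passed the filter on low counts through the 0.1 µg/ml libraries alone, so no rise is read from this call.

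Per transcript length, the order of the products in control was Defa24 at 2566 ± 114 TPM (SD, n = 2), Defa17 at 960 ± 103, Itln1 at 499 ± 67.9, Lyz1 at 250 ± 11.1, Ang4 at 34.5 ± 0.177, Habp2 at 4.92 ± 1.40, AY761184 at 4.71 ± 0.134, Mptx1 at 2.81 ± 0.311, Mptx2 at 0.400 ± 0.0566 and Pla2g2a at 0.205 ± 0.00707. Only Habp2 and AY761184 could not be ordered beyond their spread. At 0.5 µg/ml the first 5 kept this order, from Defa24 at 249 ± 5.58 TPM to Ang4 at 7.51 ± 0.686. Mptx1, at 1.54 ± 0.0778 TPM, then stood above Habp2 at 0.640 ± 0.184. The 10 genes together held 0.453 and 0.411% of all TPM in control, 0.120 and 0.156% with 0.1 µg/ml, and 0.0451 and 0.0432% with 0.5 µg/ml, most of it from Defa24 and Defa17.

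The fall was split about evenly between the dose steps for most products. Of the log2 fall reached at 0.5 µg/ml, the share already present at 0.1 µg/ml was 50.6% for Lyz1, 51.7% for Defa17, 49.1% for Defa24, 51.4% for Itln1, 54.4% for Habp2, 56.2% for Ang4 and 67.2% for AY761184. The median over the 8 lower products was 51.6%, against 29.3% over all 5626 genes lower at 0.5 µg/ml. Both steps were lower for 7 of the 9 tested products, against 9.32% of all genes. The second step of AY761184, counted among them, did not pass with DESeq2 (adjusted p = 0.15). A contrast of the first against the second step, added after the data were seen, passed for Mptx1 alone among the 9 (difference 2.81 ± 0.33 log2, edgeR adjusted p = 2.77e-04). Over all genes tested 17.2% were called with the second step lower, as Mptx1 was, and 9.77% with the first step lower. Among all genes lower at 0.5 µg/ml, 33.1% fell more at the second step and 1.55% more at the first. The goblet cell markers lower at 0.5 µg/ml had a median share of 33.8%, and 5 of 8 fell more at the second step. Without the second 0.1 µg/ml library Itln1 also passed, with the larger fall at the first step (-0.80 log2, edgeR adjusted p = 0.0255), and AY761184 passed the same way in the limma fits of TPM (adjusted p = 0.00302 to 0.0219).

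**Figure D2:**
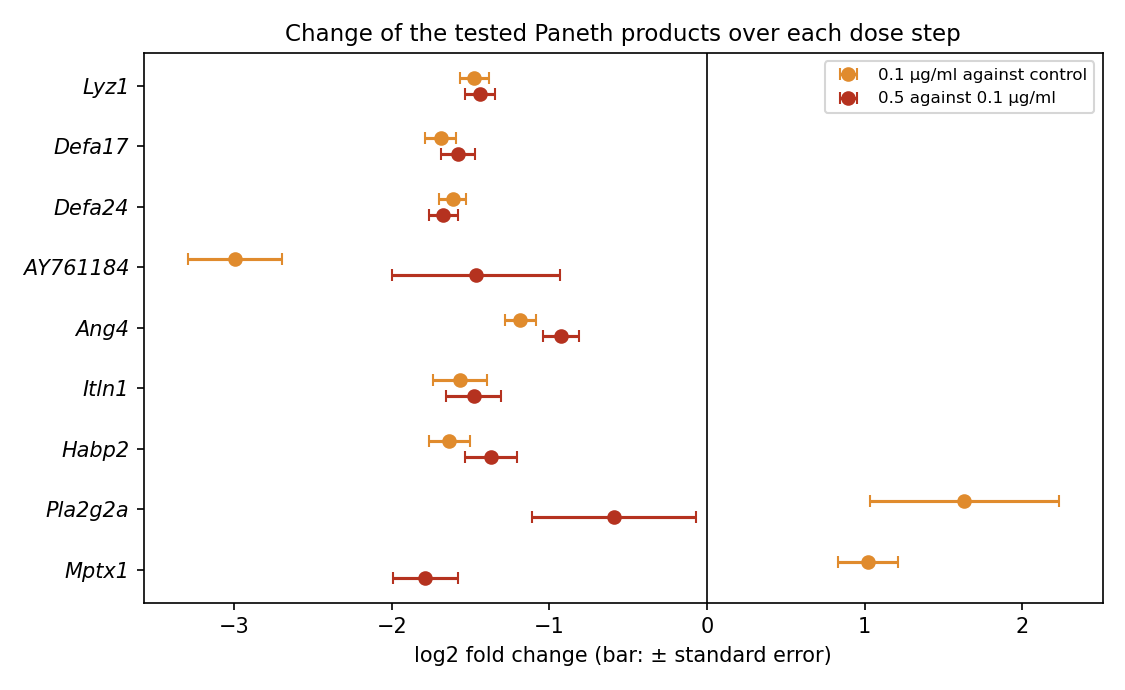
Log2 fold change (x axis, bars ± standard error) of the 9 tested products for 0.1 µg/ml against control (orange) and 0.5 against 0.1 µg/ml (red). For Lyz1, Defa17, Defa24, Itln1 and Habp2 the steps lie side by side near -1.5, while Mptx1 is at 1.02 for the first and -1.79 for the second.

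Among the abundant products the mix shifted less than the level. Defa17 had a mean ratio to Lyz1 counts of 0.678 in control, 0.586 with 0.1 µg/ml and 0.532 with 0.5 µg/ml, and Defa24 of 2.03, 1.84 and 1.57, both lower at each dose without overlap between groups. The mean ratios of Itln1 (1.76, 1.64 and 1.61) and Habp2 (0.0335, 0.0303 and 0.0315) were less changed at 0.5 µg/ml, with those libraries just below control. Their 0.1 µg/ml libraries lay apart, 1 below both 0.5 µg/ml libraries and 1 between the control libraries. The ratio of Ang4 went up from 0.0654 to 0.0805 and 0.114. Mptx1 went from 0.00631 to 0.0357 and 0.0279, whereas AY761184 went from 0.00524 to 0.00181 and 0.00172. With 2 libraries against 2, an exact permutation test of a ratio cannot go below p = 0.333, so these ratios are given without a test.

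**Figure D3:**
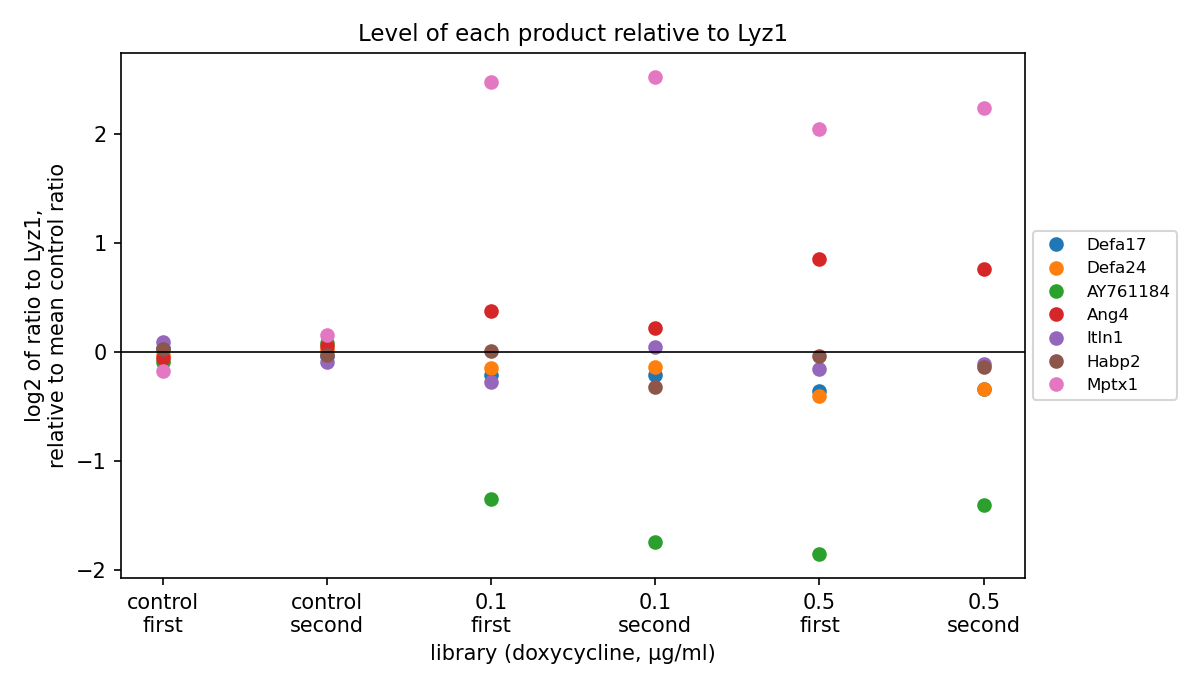
Log2 ratio to Lyz1 counts, relative to the mean control ratio (y axis), in each of the 6 libraries (x axis). Shown are Defa17, Defa24, AY761184, Ang4, Itln1, Habp2 and Mptx1, and the scarce Pla2g2a and Mptx2 are left out. Defa17 and Defa24 lie below 0 at both doses, and at the higher dose Itln1 and Habp2 lie nearer 0 than they do. At the lower dose the libraries of Itln1 and Habp2 lie apart, the lower of each below those of Defa17 and Defa24. Ang4 and Mptx1 lie above 0 at both doses, and AY761184 lies farthest below 0.

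Measured as the root mean square difference between log2 profiles centred over the 6 libraries, Habp2 (0.118), Itln1 (0.122), Defa17 (0.145) and Defa24 (0.154) lay closest to Lyz1 among the products, Ang4 was at 0.340 and AY761184 at 0.695, and Mptx1 (1.11) and Pla2g2a (1.69) were far from it. Among 10481 other genes with at least 5 CPM in a group, the nearest to Lyz1 were Atp2c2 (0.0521), a calcium and manganese pump of the secretory pathway, the growth factor receptor Fgfr3 (0.0945), the nuclear receptor Esrrg (0.106), the secreted protease Prss12 (0.121) and the calcium channel gene Cacna1h (0.154). Atp2c2 had 21.3 and 18.1 CPM in control, 6.33 and 7.75 with 0.1 µg/ml, and 2.68 and 2.67 with 0.5 µg/ml. The gene nearest to the median profile of the products was also Atp2c2 (0.0619), and Tacc1 (0.154) took the place of Cacna1h among the nearest 5. These distances describe 6 libraries in 3 groups, so any gene with like steps at both doses lies near.

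Most other alpha-defensins that could be tested were lower at 0.5 µg/ml. Of 26 further family members in the tables, 14 passed the filter, and 12 of them were lower at 0.5 µg/ml (33.1% of all genes) with none higher, and 9 were lower at 0.1 µg/ml (13.8% of all genes). At 0.1 µg/ml Defa2 (log2 change -0.12), Defa29 (-0.11), Defa36 (-0.55), Defa32 and Defa33 did not pass, and Defa2 and Defa30 fell more at the second dose step. Defa28, which was not tested, had 3 and 3 counts in control, 15 and 10 with 0.1 µg/ml, and 0 and 1 with 0.5 µg/ml. Defa2, Defa28, Defa29 and Defa36 were named after their values were seen. The median log2 change of the 14 tested genes was -2.21 at 0.5 µg/ml and -1.11 at 0.1 µg/ml. The 2 that did not pass at 0.5 µg/ml, Defa32 and Defa33, had under 1 CPM in every library and share nearly all their windows with other copies. Defa30, which differs from Defa24 at only 4 coding bases but shares few windows, fell from 24.2 to 13.8 and 5.28 CPM, which is 4.59-fold at 0.5 µg/ml (edgeR adjusted p = 1.93e-08). Defa23 fell from 15.2 to 6.83 and 2.82 CPM (5.43-fold) and Gm7861 from 10.4 to 3.93 and 1.43 CPM (7.36-fold). Of the windows of Defa23 and Gm7861, 89.1% and 95.6% also occur in other copies, and of those of Defa2 and Defa36 100.0% and 94.7%. Their single values are therefore uncertain, and the family members counted here are not all separate measurements.

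Because reads of identical copies can be placed with either one, all 29 alpha-defensin genes were also summed into a single feature. The sum was 842 and 813 CPM in control, 254 and 311 with 0.1 µg/ml, and 94.0 and 87.2 with 0.5 µg/ml. It was 2.93-fold lower at 0.1 µg/ml (edgeR adjusted p = 6.90e-07) and 9.14-fold lower at 0.5 µg/ml (edgeR adjusted p = 1.31e-09), values that the division of reads within the family cannot change. The share of all TPM held by the family went from 0.472 to 0.156 and 0.0490%.

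**Figure D4:**
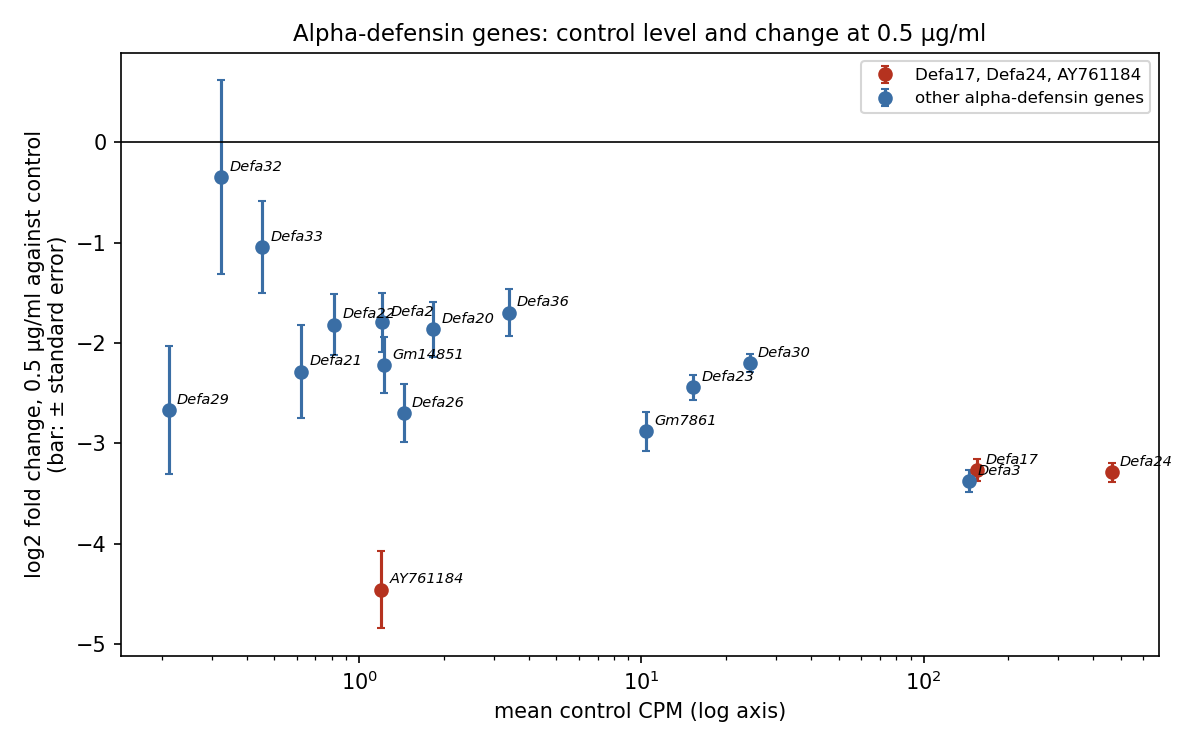
Log2 fold change at 0.5 µg/ml against control (y axis, bars ± standard error) of the tested alpha-defensin genes against mean control CPM (x axis, log scale), with Defa17, Defa24 and AY761184 in red. Defa24, Defa17 and Defa3 are the most abundant and lie near -3.3, AY761184 lies lowest at -4.46, and the 2 genes nearest 0 are Defa32 and Defa33.

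Other genes linked to Paneth cells, most of them for secreted proteins, were more mixed. Of 16 tested, 10 were lower and 3 higher at 0.5 µg/ml, against 33.1% and 34.4% of all genes, with a median of -1.26. At 0.1 µg/ml 8 were lower and 4 higher, against 13.8% and 20.8%. Mmp7, the protease that activates the defensins, had 4.56 and 3.83 CPM in control, 1.96 and 1.83 with 0.1 µg/ml, and 0.710 and 0.921 with 0.5 µg/ml, a 5.09-fold fall at the higher dose (edgeR adjusted p = 3.12e-06). Reg3g, a lectin that kills Gram-positive bacteria and is also made by enterocytes, fell 7.16-fold from 7.12 to 0.993 CPM (edgeR adjusted p = 7.54e-08). Rnase4, a secreted ribonuclease, stood at 63.9, 68.7 and 42.5 CPM and was lower at 0.5 µg/ml (edgeR adjusted p = 8.25e-06). Reg4, a lectin shared with other secretory cells, fell 3.82-fold from 78.3 to 20.5 CPM (edgeR adjusted p = 7.18e-07). Guca2b, an intestinal peptide hormone, went from 29.8 to 62.4 and 31.0 CPM, higher at 0.1 µg/ml than in control (edgeR adjusted p = 1.95e-05) and lower at 0.5 than at 0.1 µg/ml (edgeR adjusted p = 1.06e-05). The 3 higher at 0.5 µg/ml were Nupr1, Pnliprp2 and Sftpd. Nupr1, a stress-induced gene, went from 70.9 to 134 CPM (edgeR adjusted p = 3.74e-05), and Pnliprp2, a lipase, from 5.15 to 7.30 CPM. Sftpd, a collectin, had 3 counts in both control libraries together and 53 at 0.5 µg/ml. Its ratio was 18.4, with an exact 95% interval of 5.95 to 91.8 for counting error only. Pnliprp2 and Sftpd were named after their values were seen. At 0.1 µg/ml Nupr1 was lower than in control (54.1 CPM, edgeR adjusted p = 0.0208). That call did not pass with DESeq2 (adjusted p = 0.0638) or limma (0.0622 to 0.197).

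Of 6 tested genes for signals that Paneth cells send to stem cells, 3 were lower and 2 higher at each dose, against 33.1% and 34.4% of all genes for the higher dose and 13.8% and 20.8% for the lower. Wnt3 fell from 4.45 to 1.89 and 0.679 CPM, which is 6.54-fold at 0.5 µg/ml (edgeR adjusted p = 1.01e-06). The Notch ligands Dll1 (17.6 to 8.20 CPM, edgeR adjusted p = 1.60e-06) and Dll4 (8.07 to 2.58 CPM, edgeR adjusted p = 3.27e-06) fell less. At 0.1 µg/ml the call of Dll4 did not pass with DESeq2 (adjusted p = 0.0755), limma (0.0777 to 0.198), or without either control library or the first 0.1 µg/ml library (edgeR adjusted p = 0.0859 to 0.235). Tgfa and Bst1 were the 2 higher. Tgfa went from 35.2 to 40.9 and 40.0 CPM (edgeR adjusted p = 0.0109 at 0.5 µg/ml), a call that did not pass with limma (0.321 to 0.324), library totals only (0.146) or upper quartile scaling (0.128). It also did not pass without the second control library (edgeR adjusted p = 0.0930) or the first 0.5 µg/ml library (edgeR adjusted p = 0.156). The higher call of Tgfa at 0.1 µg/ml did not pass with limma (0.0973 to 0.121), or without the second control library or either 0.1 µg/ml library (edgeR adjusted p = 0.0521 to 0.0729).

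Regulators and surface markers of the lineage were mostly lower: of 18 tested, 13 were lower and 4 higher at 0.5 µg/ml, against 33.1% and 34.4% of all genes, with a median of -1.48. At 0.1 µg/ml 11 were lower and 1 higher, against 13.8% and 20.8%. Atoh1, the factor that starts the secretory lineage, fell 5.24-fold from 2.25 to 0.427 CPM (edgeR adjusted p = 1.13e-05), Gfi1, which acts after it, 4.38-fold from 1.61 to 0.366 CPM (edgeR adjusted p = 5.55e-05), and Spdef 4.41-fold from 9.05 to 2.04 CPM (edgeR adjusted p = 3.32e-07). Sox9, needed for Paneth cell formation, fell 2.68-fold from 31.3 to 11.7 CPM (edgeR adjusted p = 1.63e-05). The intestinal identity factors Cdx1 (150 to 50.6 CPM, edgeR adjusted p = 2.05e-08) and Cdx2 (178 to 58.6 CPM, edgeR adjusted p = 1.22e-09) and the secretory stress factor Xbp1 (202 to 132 CPM, edgeR adjusted p = 9.99e-07) were also lower. The 4 higher were Cd24a (239 to 537 CPM, edgeR adjusted p = 5.28e-07), a surface protein also found on other epithelial cells, Ephb3 (25.0 to 31.1 CPM, edgeR adjusted p = 0.0188), the receptor that holds Paneth cells at the crypt base, and Bhlha15 and Foxa1, both named after their values were seen. The rise of Ephb3 did not pass with limma (0.199 to 0.344), library totals only (0.0652) or upper quartile scaling (0.0647), nor without the second control library or either 0.5 µg/ml library (edgeR adjusted p = 0.0937 to 0.205).

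Genes of autophagy and granule handling, several of which are known to shape Paneth granules, had no common direction: of 9 tested, 5 were higher and 3 lower at 0.5 µg/ml, against 34.4% and 33.1% of all genes, with a median of 0.13, and 1 was higher and 1 lower at 0.1 µg/ml, against 20.8% and 13.8%. Atg16l1 went from 34.7 CPM in control to 42.1 at 0.5 µg/ml (edgeR adjusted p = 5.64e-04), a call that did not pass with limma (0.128 to 0.138). Atg5 went from 32.8 to 36.6 CPM (edgeR adjusted p = 0.0139), which did not pass with limma (0.479 to 0.494), library totals only (0.228) or upper quartile scaling (0.212), or without either control library or the second 0.5 µg/ml library (edgeR adjusted p = 0.0558 to 0.160). Atg4b was lower, at 43.6 and 31.1 CPM (edgeR adjusted p = 1.09e-05). Rab2a stood at 118, 124 and 123 CPM.

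**Figure D5:**
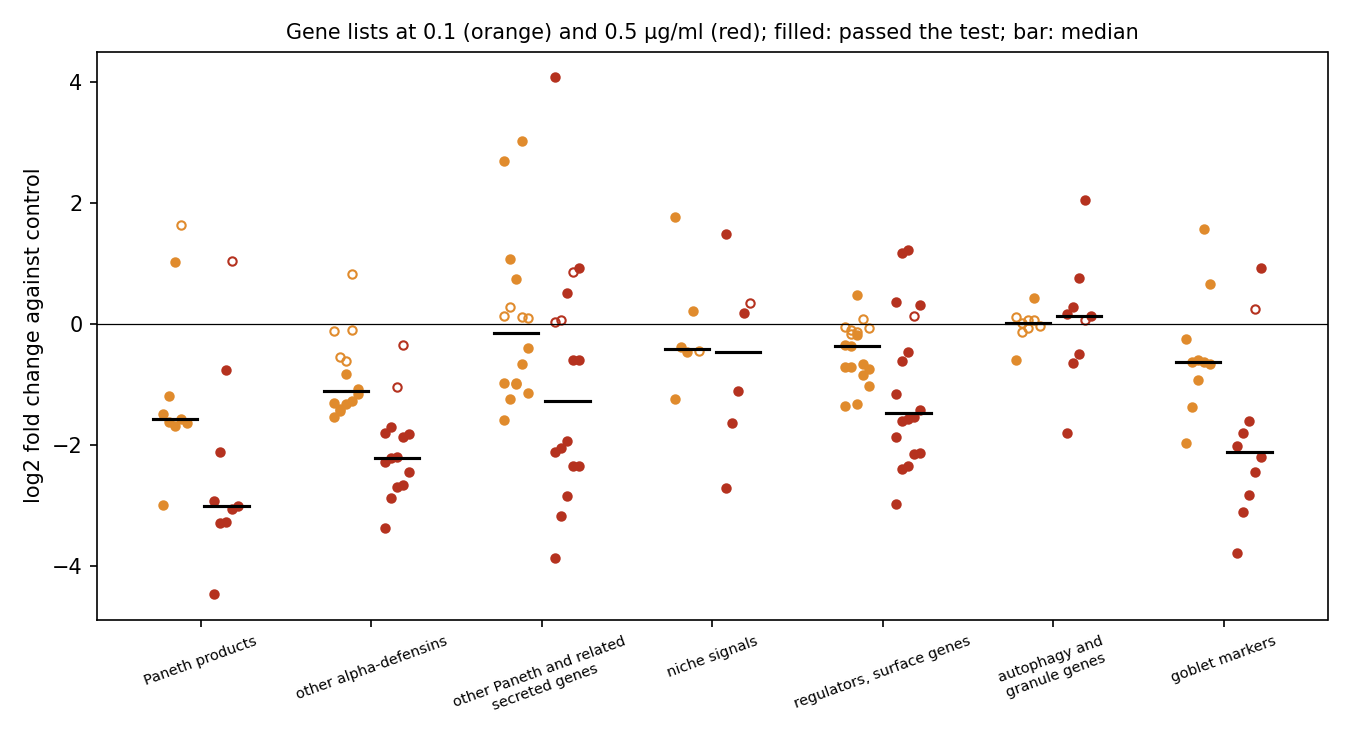
Log2 fold change against control (y axis) of each tested gene in 7 lists (x axis), at 0.1 µg/ml in orange and 0.5 µg/ml in red, with filled points for genes that passed the test and bars for the median. The Paneth products have the lowest medians at both doses, -1.57 and -3.01, and the autophagy and granule genes lie around 0.

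Markers of other cell types moved as well. Of 10 goblet cell markers 8 were lower and 1 higher at 0.5 µg/ml, against 33.1% and 34.4% of all genes, with a median of -2.11. At 0.1 µg/ml 8 were lower and 2 higher, against 13.8% and 20.8%. Clca1 was higher at 0.1 and 0.5 µg/ml (edgeR adjusted p = 0.0440 and 0.00402). Zg16 was higher at 0.1 µg/ml (log2 change 1.57, edgeR adjusted p = 7.79e-06) and did not pass at 0.5 µg/ml. Both were named after their values were seen. The summed level of the 10 markers went from 3352 ± 203 CPM (SD, n = 2) in control to 2587 ± 239 and 774 ± 3.01. Most of this sum was Fcgbp (2484, 2098 and 617 CPM). Spink4 fell from 215 to 83.0 and 24.8 CPM and Tff3 from 230 to 146 CPM at 0.1 µg/ml, with a log2 change of -2.20 at 0.5 µg/ml (edgeR adjusted p = 3.69e-09). Fcgbp fell from 2484 to 617 CPM at 0.5 µg/ml (edgeR adjusted p = 4.65e-09) and Agr2 from 108 to 19.9 CPM (edgeR adjusted p = 1.97e-09). Of 12 macrophage and neutrophil markers, which would carry Lyz2, 4 were tested, and 2, Ptprc and Cd68, were higher and 2, Itgam (2.17 to 0.861 CPM) and Mrc1 (1.24 to 0.404 CPM), lower at 0.5 µg/ml, against 34.4% and 33.1% of all genes. Their summed level was 5.56 to 6.04 CPM in control, 7.82 to 8.36 at 0.1 µg/ml and 15.3 to 15.8 at 0.5 µg/ml, of which Cd68, a lysosomal gene that epithelial cells also express, made up most at 0.5 µg/ml (2.23, 4.75 and 13.5 CPM). Ptprc, the defining leukocyte gene, had 0 counts in both control libraries and 13 and 14 at 0.5 µg/ml, and Adgre1, Mpo and Elane had 0 counts in every control and 0.5 µg/ml library. Of 10 liver and pancreas markers 4 were tested and all 4 were lower at 0.5 µg/ml, against 33.1% of all genes. They were Ttr (32.1 to 2.43 CPM), which intestinal endocrine cells also make, Alb (1.33 to 0.132 CPM), Cela1 (2.69 to 1.39 CPM) and Apoa2 (1.33 to 0.729 CPM), the last not passing without the first 0.5 µg/ml library (edgeR adjusted p = 0.0839). The part of these cells in the fall of the Paneth products was not tested.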

How the data were processed

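Strand-specific poly-A libraries were read as 100 bp pairs, per the labels' protocols. The authors deposited a table of expected counts, estimates that can be fractional where genes share reads, and a TPM table, which carries no depth. Tools listed in the submitters' processing notes are STAR 2.7.3a, RSEM 1.3.3, Trim Galore and FastQC. Both GRCm39 and mm10 are listed as builds without a role, so the only coordinates printed are RefSeq promoter windows on GRCm38.p6. Whether counting used strand is not given in these sources. Symbols were taken from GENCODE M21 (94.0% of identifiers).

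Expected counts were rounded, filtered with filterByExpr, scaled by TMM (factors 0.964 to 1.04) and fitted in edgeR 4.0.16 (R 4.3.3) with all 6 libraries in a single quasi-likelihood fit without covariates, 3 residual degrees of freedom and Benjamini-Hochberg adjustment over 16975 genes. Fold changes are edgeR's, and CPM values are TMM-scaled. Standard errors were taken from the F statistics. Alternatives were DESeq2 1.42.0, limma 3.58.1 on log2(TPM + 1) or log2(TPM + 0.1), other scaling and filters, a replicate block, a summed alpha-defensin feature, fits of 2 groups, and leaving out each library. The fit was tested on simulated data.

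The genes, the lists and the tests were chosen with earlier results of these data known, and the contrast between dose steps was added after the data were seen. All 10 products are named, and of each other list the 4 tested genes with the highest mean TPM plus Mmp7, Reg3g, Lyz2, Nupr1, Wnt3, Atoh1, Gfi1, Spdef, Sox9 and Ephb3, and the 5 genes with the nearest profiles. Coding sequences were compared after global alignment with Biopython 1.88.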

Additional observations from a re-analysis of the deposited data

Results flagged for a closer look

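Mptx1 moved in opposite directions against control at the doses: both 0.1 µg/ml libraries lay above both control libraries, and both 0.5 µg/ml libraries lay below them. The log2 change between 0.5 and 0.1 µg/ml was -1.79 ± 0.21 SE (edgeR adjusted p = 5.05e-05), which is the test of the difference between the doses, since the comparisons with control share the same libraries.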

How the results depend on the processing

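Called directions of the tested genes named by the rule above did not reverse under any alternative. Genes named outside that rule, the induced factors included, were not compared in this way. Calls of the products were the same in 528 of their comparisons with alternatives, no longer passed in 11 and newly passed in 5. With a library left out, 8 or 9 products were lower at 0.5 µg/ml and 7 at 0.1 µg/ml. In these fits 10 products were tested, except that 9 were tested without the first control library. Where tested, Mptx2 passed the filter through the first control library alone, with a log2 change of -3.30 to -3.03 at 0.5 µg/ml. With only control and 0.1 µg/ml libraries, 2 products were higher at 0.1 µg/ml in place of 1. The added product was Pla2g2a, which passed the filter there through its 0.1 µg/ml libraries alone. The number called for a difference between dose steps, 1, was 2 in each limma fit, and 1 to 2 with a library left out. Over all genes, limma on log2(TPM + 1) and log2(TPM + 0.1) called 3816 and 3806 higher at 0.5 µg/ml (edgeR 5839), 3146 and 3115 higher at 0.5 against 0.1 µg/ml (5060), 1560 and 1484 lower at 0.1 µg/ml (2350) and 1945 and 2024 higher (3531), and 1036 lower and 1484 higher with any TPM above 0. Leaving out a library gave 1448 to 2291 lower and 2352 to 2963 higher at 0.1 µg/ml, the lowest without its first library. The cause was not tested. With upper quartile scaling 50.4% of calls at 0.1 µg/ml were higher, against 60.0%. Replicate numbers did not pair the libraries (correlations of deviations -0.0227 to 0.0644 over 16975 genes). With the replicate block 8 products were lower at 0.5 µg/ml and 7 at 0.1 µg/ml. Of their calls only that of AY761184 between the doses did not pass (edgeR adjusted p = 0.0586). Between the doses 7 products were lower, in place of 8, with this block, with DESeq2 or with every gene of at least 1 count kept. Depth limits Mptx2 and Pla2g2a in all groups and AY761184 at both doses, with at most 15 counts a library.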
